A study of Mus musculus with 15 samples.

Results

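The 10 genes described here code for interferon-inducible GTPases of 2 families. Gbp2, Gbp3, Gbp4, Gbp5, Gbp6, Gbp7, Gbp8 and Gbp9 are guanylate-binding proteins (GBPs), and Igtp (also called Irgm3) and Irgm1 are immunity-related GTPases (IRGs). They were chosen by name, and each symbol was found in the count tables. They are 10 of 17493 genes listed there and 10 of the 10831 genes that passed the low-count filter and were tested. All 10 passed that filter.

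The libraries hold RNA of CD8+ OT-I T cells isolated from spleens and lymph nodes of female animals of the strain C57BL/6-Tg(TcraTcrb)1100Mjb/Crl. OT-I cells carry a transgenic T cell receptor, present in all groups, that recognises an ovalbumin peptide on MHC class I. There were 5 groups of 3 libraries: unstimulated cells at 0 h, and cells kept for 8 h or 22 h with 1 of 2 stimuli. Immunofilaments (IF), which are synthetic filaments that carried peptide-loaded MHC together with interleukin-2, were given at 5 ng/ml. Dendritic cells (DC) grown with Flt3 ligand and loaded with the SIITFEKL peptide were given at 20000 per well. Titles of the IF libraries abbreviate their peptide as SIIT, the first letters of SIITFEKL. They do not say how this sequence relates to the native ovalbumin peptide. No other peptide is named in the titles, so the part of the peptide's sequence in the results was not tested. Both stimuli met 50000 T cells per well, and viable CD8+ CD103- cells were sorted before RNA was taken. The labels give no mouse age. They number the libraries of each group Don1 to Don3 without saying what this stands for, so p-values measure the spread between these libraries, which may be technical. They do not describe a DC or IF control without peptide, and interleukin-2 was part of the IF stimulus alone, so the presenting surface and the cytokine cannot be told apart. Unstimulated cells were sampled at 0 h alone, so in comparisons with them the stimulus and the time in culture cannot be told apart.

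GBP and IRG genes are among the genes most responsive to interferon gamma, a cytokine that activated CD8+ T cells themselves secrete. The cytokine binds the receptor Ifngr1-Ifngr2, the kinases Jak1 and Jak2 pass the signal on, and transcription factors, Irf1 among them, switch on genes through DNA elements called GAS (interferon gamma activated site) and ISRE (interferon-stimulated response element). GBPs and IRGs gather on membranes around intracellular microbes and help to break them open. Irgm1 and Igtp belong to the regulatory IRGs, which keep effector IRGs such as Iigp1 inactive on the cell's own membranes, and Irgm1 is also known for protecting activated lymphocytes.

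The genes lie in 2 GBP clusters and at 2 IRG positions (mouse build GRCm38, GENCODE vM21 annotation, all protein coding). On chromosome 3, Gbp5 lies at chr3:142493978-142522344, Gbp7 at chr3:142530342-142550149, Gbp3 at chr3:142560026-142573209 and Gbp2 at chr3:142620602-142638008, all on the + strand. On chromosome 5, Gbp8 lies at chr5:105014150-105139540, Gbp9 at chr5:105077630-105139539, Gbp4 at chr5:105115767-105139586 and Gbp6 at chr5:105270702-105293698, all on the - strand. Irgm1 lies at chr11:48861968-48871683 on the - strand and Igtp at chr11:58199556-58207591 on the + strand.

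The promoters are shown because they carry the elements through which these genes are known to answer interferon. The RefSeq promoter table (GRCm38.p6, 250 bases before to 50 bases after a start site) held 6 of the 10 genes: Gbp2, Gbp3, Gbp5, Gbp7, Igtp and Irgm1. Each was searched on both strands for the ISRE core GAAANNGAA (TTCNNTTTC on the other strand) and for the GAS motif TTCNNNGAA, which reads the same on both strands. In the stretches below, read 5′ to 3′ along each gene, capitals mark the ISRE core, and where 2 matches overlap they form 1 capital run.
Gbp2, chr3:142620581-142620637: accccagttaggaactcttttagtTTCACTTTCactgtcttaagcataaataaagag
Gbp3, chr3:142559976-142560038: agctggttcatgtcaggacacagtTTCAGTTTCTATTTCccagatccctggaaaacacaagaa
Gbp5, chr3:142496746-142496802: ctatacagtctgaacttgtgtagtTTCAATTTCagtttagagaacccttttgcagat
Gbp7, chr3:142530260-142530316: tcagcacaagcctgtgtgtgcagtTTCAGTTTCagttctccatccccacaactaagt
Igtp, chr11:58199498-58199554: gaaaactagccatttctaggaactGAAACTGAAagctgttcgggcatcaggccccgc
Irgm1, chr11:48871421-48871474: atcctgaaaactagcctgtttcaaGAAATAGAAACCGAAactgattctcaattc

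The table held 7 promoters of these 6 genes, since Gbp3 had 2. The ISRE core was present in 6 of the 7, all but the second promoter of Gbp3, and thus in at least 1 promoter of each gene, against 9.76% of the 27025 genes in the table. In Gbp2 it spanned positions -58 to -50 from the start site, in Gbp7 -52 to -44 and in Igtp -34 to -26. Gbp3 had 2 overlapping matches, at -44 to -36 and -38 to -30, and so did Irgm1, at -30 to -22 and -24 to -16. The Gbp5 match lay farther out, at -164 to -156. A GAS motif was found in 3 of the 6, Gbp5 (2 matches), Gbp7 (2 matches) and Igtp (1 match, at -45 to -37), against 9.55% of all genes in the table. In Gbp3, Gbp7 and Igtp the 9 letters of a core were TTCAGTTTC or its reverse complement GAAACTGAA. A letter match describes the sequence and does not show that a factor bound there.

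Total counts per library ran from 2892874 to 19806730. The 10 genes together took 0.0479% to 0.0526% of counts in unstimulated libraries, 0.168% to 0.309% with IF for 8 h, 0.130% to 0.343% with DC for 8 h, 0.0508% to 0.0643% with IF for 22 h and 0.0918% to 0.255% with DC for 22 h. Of 8 CD8 T cell markers 6 were in the tables, with a summed level of 8019 to 8854 CPM in unstimulated libraries and 3569 to 5708 CPM in stimulated ones. The part of that difference in the results was not tested. The CD4 T cell markers reached at most 8.62 CPM. Replicates 2 and 3 of IF 22 h stood apart from the other 13 libraries. Mitochondrial ribosomal RNA made up 0.179% and 0.146% of their counts, against 1.82% to 4.49% elsewhere, and 114 tested genes were more than 2-fold below every other library in both. Gbp7 and Irgm1 were 2 of these 114 genes, so their IF 22 h values are given with and without those 2 libraries.

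For Gbp2, normalised read counts (CPM, counts relative to TMM-scaled library totals) were 153, 124 and 116 in the unstimulated libraries. They were 1078, 801 and 1490.4 at IF 8 h, and 535, 1977 and 672 at DC 8 h. All 6 libraries at 8 h lay above all 3 unstimulated ones, and the DC libraries spread 3.70-fold around a mean of 1061 ± 796 CPM (SD, n = 3). At 22 h the IF libraries held 153, 231 and 174 CPM, overlapping the unstimulated range, while the DC libraries held 369, 894 and 256 CPM. Gbp2 is known for binding vacuoles that contain parasites and bacteria.

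Gbp3, a neighbour of Gbp2 that is also recruited to parasite vacuoles, showed the same order of groups at a lower level. Its values were 10.7, 3.43 and 12.6 CPM unstimulated, 36.6, 24.2 and 38.6 at IF 8 h and 28.5, 40.7 and 25.0 at DC 8 h. At 22 h they were 9.52, 14.6 and 9.39 CPM with IF and 23.1, 22.6 and 17.2 with DC. The 3 DC libraries at 22 h lay above every unstimulated and IF 22 h library.

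Gbp5, known for promoting assembly of the NLRP3 inflammasome, had 4 to 94 counts per library. It was at 1.61, 2.89 and 0.931 CPM unstimulated, at 2.85, 5.30 and 2.41 with IF for 8 h and at 4.46, 11.7 and 4.99 with DC for 8 h. At 22 h it was at 1.55, 1.20 and 0.97 CPM with IF and at 4.44, 7.41 and 4.36 with DC. Its highest group mean was DC 8 h, where most other members were highest at IF 8 h. At both times the DC mean was above the IF mean, with overlap at 8 h and none at 22 h.

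Gbp7, which is known to bring autophagy and oxidase proteins to bacterial vacuoles, held 113, 132 and 118 CPM in unstimulated cells. With IF for 8 h it held 275, 166 and 377 CPM, and with DC for 8 h 139, 226 and 130.2 CPM. At DC 22 h it held 178, 271 and 171 CPM. At IF 22 h replicate 1 held 106 CPM, near the unstimulated libraries, and replicates 2 and 3 held 39.1 and 23.9 CPM. Those last 2 are the lowest values of Gbp7 in the series and belong to the 2 libraries with little mitochondrial ribosomal RNA.

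**Figure D1:**
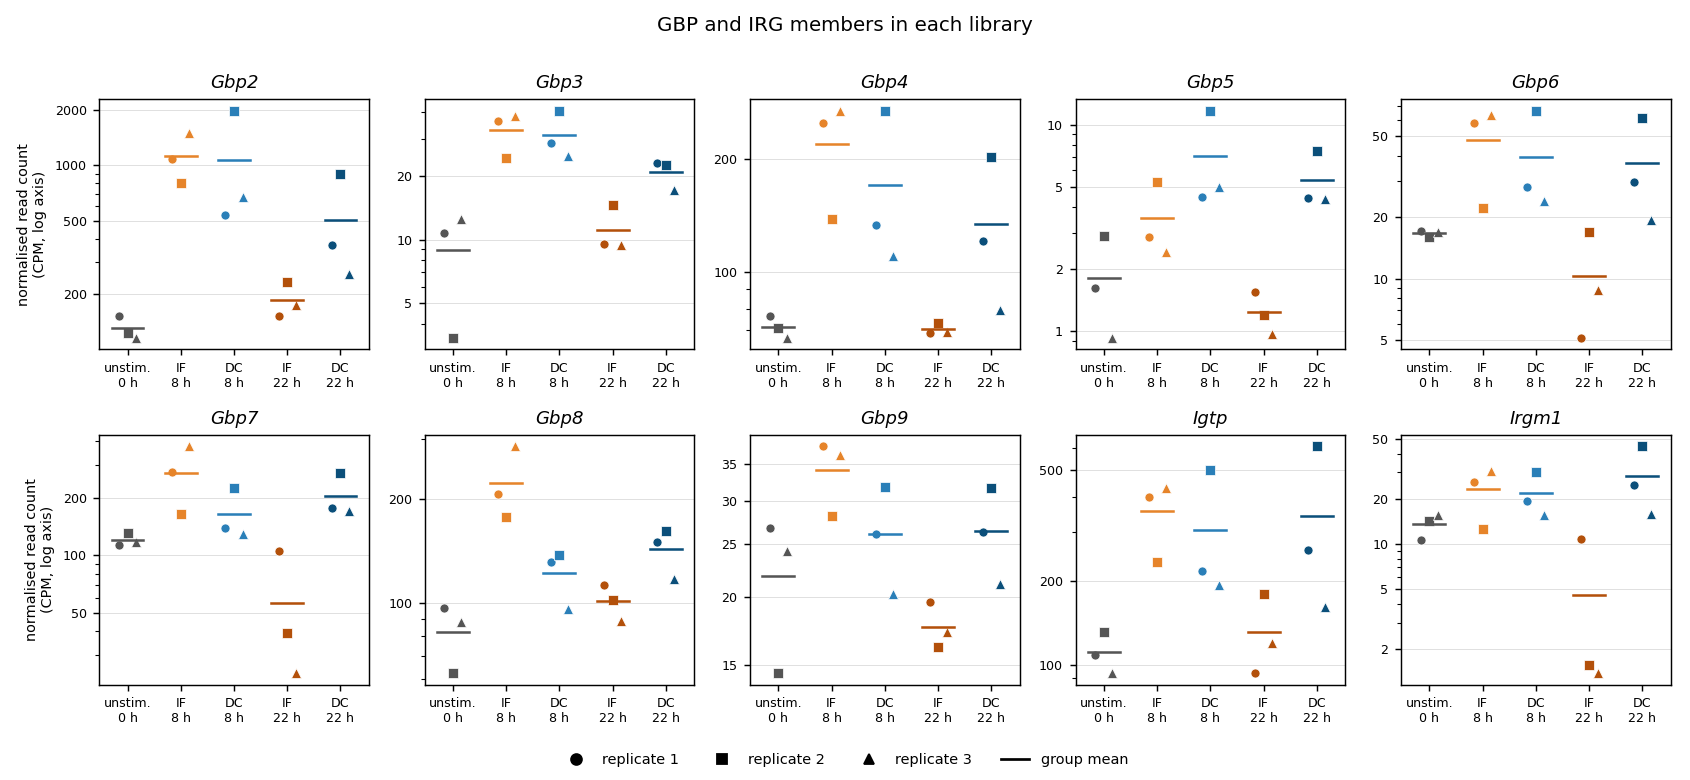
Normalised read counts (CPM, log axis, own range in each panel) of the 10 members in the 15 libraries, by group on the horizontal axis; symbols are replicates and lines are group means. Gbp2 was at 801 CPM or more in every IF 8 h library and at 231 CPM or less in every IF 22 h library, and in Gbp7 and Irgm1 replicates 2 and 3 of IF 22 h lie far below replicate 1.

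In the chromosome 5 cluster, Gbp4 was tight without stimulation, at 76.5, 70.8 and 66.8 CPM. It held 250.1, 139 and 269 CPM with IF for 8 h and 134, 269.5 and 110.3 CPM with DC for 8 h. After 22 h with IF it held 68.8, 73.0 and 69.3 CPM, a mean of 70.4 ± 2.30 CPM (SD, n = 3) beside 71.4 ± 4.86 CPM unstimulated. After 22 h with DC it held 121, 203 and 79.2 CPM, all above the unstimulated libraries.

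Gbp6, also found on parasite vacuoles, was at 17.0, 15.9 and 17.0 CPM unstimulated and at 57.6, 22.2 and 63.0 CPM with IF for 8 h. DC for 8 h gave 28.0, 66.4 and 24.1 CPM, IF for 22 h 5.12, 17.0 and 8.83 CPM and DC for 22 h 29.6, 61.3 and 19.4 CPM. Its lowest library was IF 22 h replicate 1, not one of the 2 libraries with little mitochondrial ribosomal RNA. Of the 60-base words in the last 500 exonic bases of its transcripts, where this 3′ assay reads, 87.3% also occur in another gene, mostly Gm43302 and Gbp10, so reads of these copies cannot be told apart and its level is uncertain.

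Gbp8 was at 96.9, 62.4 and 87.7 CPM unstimulated, 208, 177 and 286 at IF 8 h and 132, 138 and 96.2 at DC 8 h. At 22 h it was at 113, 102 and 88.8 CPM with IF and at 150.3, 162 and 117 with DC. It was the only member whose IF 8 h libraries all lay above its DC 8 h libraries.

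Gbp9 moved least. It was at 26.7, 14.5 and 24.2 CPM unstimulated, 37.8, 28.2 and 36.4 at IF 8 h and 26.0, 31.8 and 20.3 at DC 8 h. At 22 h it was at 19.5, 16.1 and 17.2 CPM with IF and 26.3, 31.6 and 21.1 with DC. Gbp4, Gbp8 and Gbp9 share 60 or 61 exonic bases in the annotation, at most 1.77% of any of them.

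Igtp, a regulatory IRG, held 109, 131 and 93.3 CPM in unstimulated libraries. IF for 8 h gave 400.0, 235 and 434 CPM and DC for 8 h gave 218, 503 and 194 CPM. After 22 h the IF libraries held 93.4, 180.5 and 119.6 CPM and the DC libraries 259, 612 and 161 CPM. Its highest library of all was DC 22 h replicate 2. Of its exonic bases 8.01% overlap the neighbouring IRG gene Irgm2 on the same strand.

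Irgm1, the regulatory IRG linked to survival of activated lymphocytes, was at 10.7, 14.3 and 15.6 CPM without stimulation. IF for 8 h gave 26.0, 12.6 and 30.8 CPM, DC for 8 h gave 19.4, 30.1 and 15.7 CPM and DC for 22 h gave 24.6, 45.0 and 16.0 CPM. With IF for 22 h replicate 1 was at 10.8 CPM and replicates 2 and 3 were at 1.55 and 1.38 CPM. Replicate 1 was thus within reach of the unstimulated libraries, and the other 2 were the lowest of all 15.

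From high to low, group means ran IF 8 h, DC 8 h, DC 22 h, then unstimulated and IF 22 h in either order, for Gbp2, Gbp3, Gbp4 and Gbp6. For Gbp7, Gbp8, Gbp9 and Igtp DC 22 h came before DC 8 h. Gbp5 was led by DC 8 h and Irgm1 by DC 22 h. IF 22 h and unstimulated cells held the 2 lowest means for all 10. In the edgeR tests that follow no member differed past the threshold between IF and DC after 8 h, between DC 8 h and DC 22 h, or between IF 22 h and unstimulated cells. IF 8 h and DC 22 h, which are neighbours in the order of 6 members, were not tested against each other.

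The first comparison set IF 8 h against unstimulated cells. Of the 10 members 5 rose, beside 3.04% of all tested genes called higher. Gbp2 rose most, by 3.10 ± 0.48 on the log2 scale (SE, 8.59-fold, edgeR quasi-likelihood test with Benjamini-Hochberg adjustment over all tested genes, adjusted p = 0.000833). Gbp3 rose by 1.91 ± 0.37 (adjusted p = 0.00501), Igtp by 1.68 ± 0.44 (adjusted p = 0.0282), Gbp4 by 1.62 ± 0.35 (adjusted p = 0.00961) and Gbp8 by 1.44 ± 0.22 (adjusted p = 0.000769). Among the others, Gbp6 had a difference of 1.52 ± 0.51 (adjusted p = 0.0799) and Gbp7 of 1.17 ± 0.42 (adjusted p = 0.0994), while Gbp5, Irgm1 and Gbp9 had differences of 0.92, 0.79 and 0.65 with adjusted p of 0.361, 0.459 and 0.138. DESeq2 called Gbp6 and Gbp7 as well (adjusted p = 0.0269 and 0.0446). It called 7 members, beside 11.7% of tested genes in either direction. All 10 differences were above 0, with a median of 1.48 beside 0.02 for all tested genes. In 8 members all IF libraries lay above all unstimulated ones, as did 14.2% of tested genes. The calls of Gbp2, Gbp3, Gbp4 and Gbp8 held in each of 15 fits that left out 1 library, and that of Igtp in 10 of 15: it was lost without IF 8 h replicate 1 or 3 or any 1 unstimulated library (differences of 1.52 to 1.81, adjusted p 0.0672 to 0.110).

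With DC for 8 h, 4 members rose, beside 2.75% of tested genes. Gbp2 rose by 3.02 ± 0.48 (adjusted p = 0.00115), Gbp5 by 1.93 ± 0.55 (adjusted p = 0.0431), Gbp3 by 1.82 ± 0.37 (adjusted p = 0.00570) and Gbp4 by 1.26 ± 0.34 (adjusted p = 0.0342). Igtp had a difference of 1.46 ± 0.44 (adjusted p = 0.0547), Gbp6 of 1.25 ± 0.50 (adjusted p = 0.158) and Gbp8 of 0.57 ± 0.22 (adjusted p = 0.141). Irgm1, Gbp7 and Gbp9 differed by 0.69, 0.45 and 0.26, with adjusted p of 0.552, 0.591 and 0.622. The median over members was 1.25, beside 0.04 for all genes, and 7 members lay wholly above the unstimulated libraries, as did 13% of tested genes. Replicate 2 was the highest DC 8 h library for all 10 members. Without it 2 members, Gbp2 and Gbp3, were called. The count was also 2 when either the first or the third unstimulated library was left out. These 3 fits called 3.61% to 4.13% of tested genes in either direction. Without DC 8 h replicate 2 the differences of Gbp4 and Gbp5 were 0.77 (adjusted p = 0.211) and 1.36 (adjusted p = 0.240). Over 15 such fits the calls of Gbp2 and Gbp3 held in all, that of Gbp4 in 11 and that of Gbp5 in 8.

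Both responses at 8 h are measured against the same 3 unstimulated libraries, so their likeness is shown by the direct comparison. Between IF and DC at 8 h none of the 10 members was called by edgeR's quasi-likelihood test, 1 (Gbp8) had an unadjusted p under 0.05, and DESeq2 called the same gene (adjusted p = 0.0114). Of all tested genes 0.665% were called in either direction. The difference of Gbp8 was 0.88 ± 0.22 (95% interval 0.41 to 1.34, adjusted p = 0.0868), with IF higher. For Gbp2 the difference was 0.08 ± 0.45 with a 95% interval from -0.86 to 1.02, and for Gbp5 it was -1.02 ± 0.53 with an interval from -2.15 to 0.11. These intervals leave room for differences of about 2-fold in Gbp2 and over 4-fold in Gbp5, so the data do not show that both stimuli gave equal levels.

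With DC for 22 h 4 members were higher than in unstimulated cells, beside 3.41% of tested genes called higher: Gbp2 by 1.95 ± 0.46 (3.87-fold, adjusted p = 0.0157), Igtp by 1.63 ± 0.44 (adjusted p = 0.0300), Gbp3 by 1.24 ± 0.36 (adjusted p = 0.0464) and Gbp8 by 0.80 ± 0.22 (adjusted p = 0.0331). The other 6 had differences of 0.27 (Gbp9) to 1.55 (Gbp5), with adjusted p from 0.0981 to 0.569. In 9 members, all but Gbp9, every DC 22 h library lay above every unstimulated one, as did 12.8% of tested genes. The count of calls was not stable: it was 0 when DC 22 h replicate 2 or unstimulated replicate 2 was left out, 1 when unstimulated replicate 3 was, and 2 when unstimulated replicate 1 or DC 22 h replicate 1 was. These 5 fits called 4.06% to 5.11% of tested genes in either direction. Without DC 22 h replicate 2 the differences of Gbp2 and Igtp were 1.28 (adjusted p = 0.0853) and 0.94 (adjusted p = 0.178). Over 15 fits without 1 library the call of Gbp2 held in 12, those of Igtp and Gbp8 in 11 each and that of Gbp3 in 6.

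With IF for 22 h none of the 10 members was called against unstimulated cells in either direction by edgeR, 2 had an unadjusted p under 0.05, and DESeq2 called 0. Of all tested genes 6.08% were called. The median over members was -0.16. Gbp2 differed by 0.51 ± 0.45 (95% interval -0.44 to 1.46), Igtp by 0.24 ± 0.43 and Gbp4 by -0.02 ± 0.34. The 2 members with an unadjusted p under 0.05 were Gbp7, at -1.11 ± 0.42 (adjusted p = 0.134), and Irgm1, at -1.61 ± 0.62 (adjusted p = 0.146), whose low values lie in the 2 libraries with little mitochondrial ribosomal RNA. The part of that RNA profile in these 2 values was not tested. Without IF 22 h replicate 1, which leaves only those 2 libraries, these 2 genes were called (Gbp7 -1.95, adjusted p = 0.00198, and Irgm1 -3.20, adjusted p = 0.000855), beside 8.49% of tested genes. With replicate 1 alone they differed by -0.19 and -0.31, and neither was called. A group of 1 library takes its spread from the other groups, and in that fit 0.833% of tested genes were called.

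Within the IF series 6 members fell between 8 h and 22 h, beside 0.48% of tested genes called lower. Gbp2 fell by 2.59 ± 0.47 on the log2 scale (6.04-fold, adjusted p = 0.0137). The log2 fold changes of the other 5 were -2.28 ± 0.43 for Gbp7 (adjusted p = 0.0162), -2.22 ± 0.51 for Gbp6 (adjusted p = 0.0467), -1.64 ± 0.34 for Gbp4 (adjusted p = 0.0318), -1.58 ± 0.36 for Gbp3 (adjusted p = 0.0437) and -1.15 ± 0.22 for Gbp8 (adjusted p = 0.0178). The other 4 had differences of -2.40 (Irgm1), -1.50 (Gbp5), -1.44 (Igtp) and -0.96 (Gbp9), with adjusted p from 0.0826 to 0.223. In all 10 every IF 22 h library lay below every IF 8 h library, a pattern seen in 9.37% of tested genes. With IF 22 h represented by replicate 1 alone the differences were -2.88 for Gbp2, -1.67 for Gbp4, -3.22 for Gbp6, -1.36 for Gbp7 and -1.10 for Irgm1, and no member was called with that single library (adjusted p 0.407 to 0.910). In that fit 0 of 11889 tested genes were called, so the count of 0 says nothing about the members. No member was called without IF 8 h replicate 3, IF 22 h replicate 2 or IF 22 h replicate 3, while 2 were called without IF 8 h replicate 1 and 3 without unstimulated replicate 1. The 3 fits with no member called held calls for 0.215% to 0.233% of tested genes in either direction, and Gbp2 differed by -2.78 to -2.33 in them. The fits that called 2 and 3 members called 0.465% and 0.645% of tested genes. Over the 15 fits that left out 1 library each, the calls of Gbp2 and Gbp8 held in 12, that of Gbp7 in 11, Gbp4 in 9, Gbp3 in 7 and Gbp6 in 4.

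Within the DC series no member was called between 8 h and 22 h by edgeR or DESeq2, with 1 unadjusted p under 0.05 (Gbp2, -1.07 ± 0.45, adjusted p = 0.461). The differences of the others ran from -0.59 (Gbp3) to 0.39 (Irgm1), and 0.48% of tested genes were called in either direction.

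**Figure D2:**
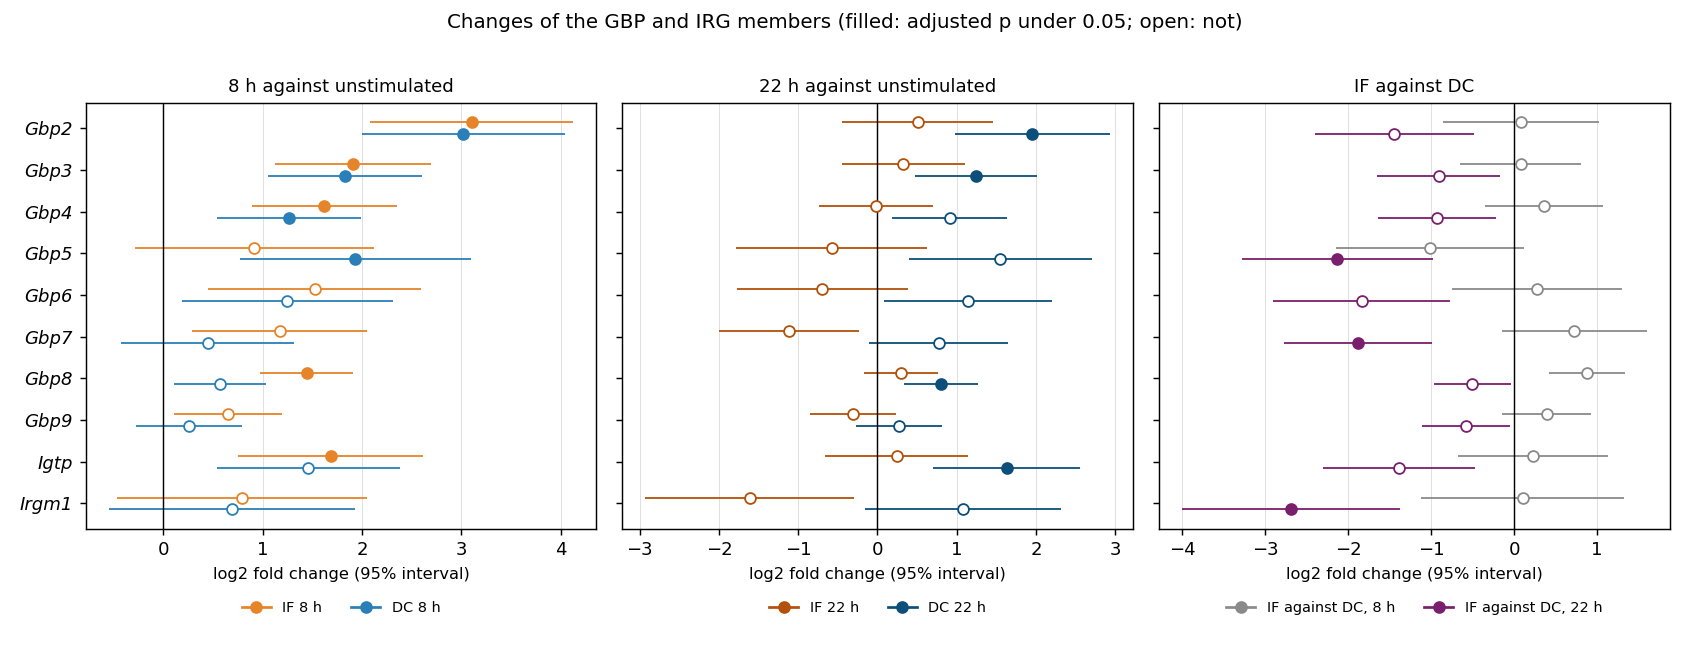
Log2 fold changes of the 10 members with 95% intervals (horizontal axis) at 8 h against unstimulated cells, at 22 h against unstimulated cells, and for IF against DC; filled points passed the threshold and open points did not. At 22 h the IF points lie between -1.61 and 0.51 and the DC points between 0.27 and 1.95.

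Set directly against each other at 22 h, all 10 differences (IF minus DC) were below 0, from -2.69 (Irgm1) to -0.50 (Gbp8) on the log2 scale, with a median of -1.42 beside -0.02 for all tested genes. Of these, 3 passed the threshold, beside 1.2% of tested genes called lower: Irgm1 at -2.69 ± 0.62 (adjusted p = 0.0294), Gbp5 at -2.13 ± 0.54 (adjusted p = 0.0485) and Gbp7 at -1.88 ± 0.42 (adjusted p = 0.0265). Gbp6 (-1.84 ± 0.51), Gbp2 (-1.44 ± 0.45) and Igtp (-1.39 ± 0.43) had adjusted p of 0.0686, 0.115 and 0.113. In 9 members, all but Igtp, every IF library lay below every DC library, as did 9.11% of tested genes. With IF replicate 1 alone no member was called, beside 0.0673% of tested genes, and the differences were -1.39 for Irgm1, -1.79 for Gbp5, -0.96 for Gbp7, -2.84 for Gbp6, -1.73 for Gbp2 and -1.88 for Igtp. The values of Irgm1, Gbp7 and Gbp5 thus came closer to 0 and those of Gbp6, Gbp2 and Igtp moved away from it. No member was called without IF 22 h replicate 2 or 3, or without DC 22 h replicate 1 or 2, and 5 were called without DC 8 h replicate 2, a library of neither group compared. The 4 fits with no member called held calls for 0.887%, 0.805%, 1.07% and 2.38% of tested genes in that order, and the fit with 5 for 2.61%. In those 4 fits Irgm1 differed by -2.78 to -2.19, Gbp5 by -2.25 to -1.84 and Gbp7 by -1.98 to -1.51. The calls of Irgm1 and Gbp7 each held in 11 of 15 fits without 1 library, and that of Gbp5 in 5.

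The interaction, the IF minus DC contrast at 22 h less that at 8 h, was below 0 for all 10 members, from -2.79 (Irgm1) to -0.97 (Gbp9). It called 0 members and 0% of tested genes by edgeR's quasi-likelihood test, with 8 members at an unadjusted p under 0.05. The smallest adjusted p values were 0.178 for Gbp8 (-1.38 ± 0.31) and 0.184 for Gbp7 (-2.61 ± 0.59), and DESeq2 called these 2 genes (adjusted p = 0.00934 and 0.00583 in that order). By the main test it passed the threshold for no member.

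Replicate 2 was the highest library of DC 8 h for 10 members and of DC 22 h for 9. Ifng, which codes for interferon gamma itself, was also highest there, at 30.4 CPM against 5.45 and 3.67 at DC 8 h, and at 75.4 CPM against 4.67 and 5.47 at DC 22 h. Iigp1, an effector IRG, was at 36.5 CPM against 4.85 and 3.96 at DC 8 h and at 66.8 CPM against 8.08 and 5.98 at DC 22 h. Part of the DC response of the GTPases thus sits in 2 libraries that also hold most Ifng, and whether that RNA level played a part was not tested. With both libraries left out (an alternative chosen after seeing the values), Gbp2 and Gbp3 remained called at DC 8 h (2.20 ± 0.24 and 1.59 ± 0.38, adjusted p = 4.92e-05 and 0.0207) and Gbp2 at DC 22 h (1.28 ± 0.24, adjusted p = 0.00388), beside 6.35% and 6.29% of tested genes called in either direction. IF against DC at 22 h then called 0 members, beside 3.11% of tested genes, and all 10 differences stayed below 0. The IF fall from 8 h to 22 h called 9 members, beside 3.23% of tested genes.

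Ifng RNA itself was low and variable. It was at 12.9, 10.3 and 23.7 CPM in unstimulated libraries, at 13.7, 8.95 and 3.48 CPM at IF 8 h and at 7.50, 7.77 and 14.2 CPM at IF 22 h. It was not called in any comparison, with differences from unstimulated cells of -0.81 ± 0.94 (IF 8 h), -0.24 ± 0.90 (DC 8 h), -0.64 ± 0.90 (IF 22 h) and 0.87 ± 0.89 (DC 22 h), with adjusted p of 0.608 to 0.921.

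The receptor genes Ifngr1 and Ifngr2 and the kinase gene Jak1 were not called in any comparison. The nearest were Ifngr2, at -1.11 ± 0.32 for IF 22 h against unstimulated cells (adjusted p = 0.0515), and Ifngr1, at 1.01 ± 0.32 for DC 8 h (adjusted p = 0.0635). Jak2 rose by 0.91 ± 0.17 at DC 8 h (adjusted p = 0.00341) and differed by 0.45 ± 0.17 at IF 8 h (adjusted p = 0.122).

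Irf1, a transcription factor that binds ISRE elements, was lower at IF 22 h than at DC 22 h by a log2 fold change of -0.86 ± 0.21 (adjusted p = 0.0369), and its differences at 8 h, 0.61 with IF and 0.55 with DC, were not called (adjusted p = 0.0886 and 0.132). Socs1, the feedback inhibitor of Jak kinases, rose with IF for 8 h (0.96 ± 0.23, adjusted p = 0.0189), with DC for 8 h (1.29 ± 0.23, adjusted p = 0.00272) and with DC for 22 h (1.43 ± 0.23, adjusted p = 0.00129), and with IF for 22 h its difference was 0.49 ± 0.23 (adjusted p = 0.244). At 22 h it was lower with IF than with DC (-0.94 ± 0.23, adjusted p = 0.0385). Socs3, another SOCS gene, fell with IF for 8 h (-1.85 ± 0.32, adjusted p = 0.00172) and for 22 h (-1.13 ± 0.29, adjusted p = 0.0293). With DC for 22 h Socs3 rose (1.56 ± 0.29, adjusted p = 0.00314). Socs3 was lower with IF than with DC at 8 h (-2.41 ± 0.32, adjusted p = 0.00101) and at 22 h (-2.69 ± 0.30, adjusted p = 0.000133).

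**Figure D3:**
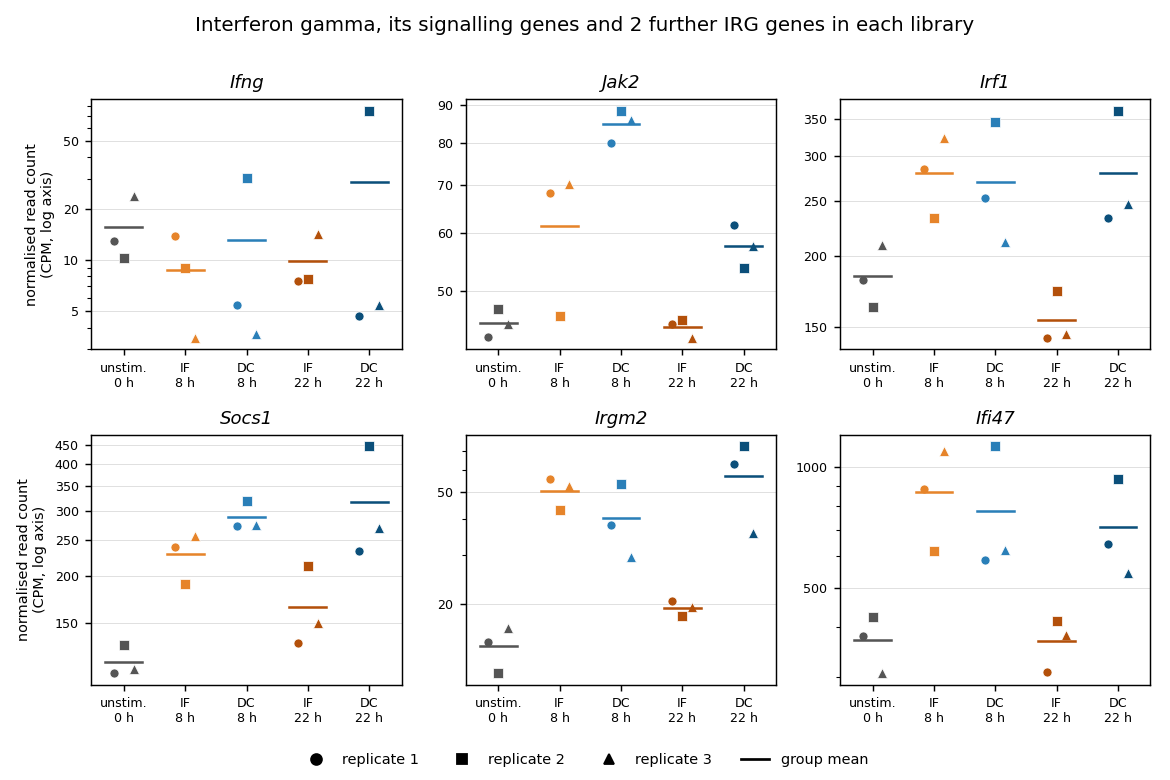
Normalised read counts (CPM, log axis, own range in each panel) of Ifng, Jak2, Irf1, Socs1 and the IRG genes Irgm2 and Ifi47 in the 15 libraries; symbols are replicates and lines are group means. Ifng is highest in replicate 2 of both DC groups (30.4 and 75.4 CPM), and the Irgm2 points at IF 22 h (18.2 to 20.6 CPM) lie below every DC 22 h point (35.7 to 72.9 CPM).

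Of 16 other genes of the GBP and IRG families 13 were in the tables and 8 were tested. With IF for 8 h 2 rose, Irgm2 (1.84 ± 0.28, adjusted p = 0.000694), another regulatory IRG, and Ifi47 (1.23 ± 0.27, adjusted p = 0.0110), and the same 2 rose at DC 8 h (1.51 ± 0.28 and 1.07 ± 0.27, adjusted p = 0.00303 and 0.0220). At DC 22 h 4 rose: Iigp1 (4.18 ± 1.08, adjusted p = 0.0246), Irgm2 (2.01 ± 0.28, adjusted p = 0.000355), Gm12250 (1.96 ± 0.50, adjusted p = 0.0242) and Ifi47 (0.93 ± 0.27, adjusted p = 0.0403). None was called at IF 22 h against unstimulated cells, and Irgm2 and Gm12250 were lower with IF than with DC at 22 h (-1.55 ± 0.27 and -2.16 ± 0.50, adjusted p = 0.00414 and 0.0282). With IF 22 h replicate 1 alone these 2 calls became 0, in a fit that called 0.0673% of tested genes, and the median of the 8 genes went from -1.73 to -1.33. The 4 at DC 22 h became 3. Irgm2 was at 20.6, 18.2 and 19.6 CPM in the 3 IF 22 h libraries and at 62.8, 72.9 and 35.7 CPM at DC 22 h, so all 3 IF libraries lay at like levels, those with little mitochondrial ribosomal RNA included.

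In profile across the 15 libraries, the genes nearest to the members' mean included Ifi47 (root-mean-square difference of centred log2 CPM 0.288), Ccdc86 (0.362), 4933412E12Rik (0.369) and Irgm2 (0.382), out of 6945 genes with a mean of at least 10 CPM. Leaving out IF 22 h replicates 2 and 3, Ifi47 (0.167) was again nearest, and Lap3 (0.254), Samhd1 (0.261) and Odc1 (0.270) were among the 5 nearest. Irgm2 (0.363) then went from rank 5 to rank 32. Among the members, Gbp8 and Gbp9 (0.290) and Gbp4 and Igtp (0.302) were nearest to each other, and Gbp4 lay closest to the mean (0.232). Gbp7 and Irgm1 were nearest to each other over 15 libraries (0.468). Over the 13 other libraries Gbp7 was nearest to Gbp8 (0.321) and Irgm1 to Gbp7 (0.321). All genes share the same libraries and depth here, and these values only describe likeness.

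The rest of the pathway was counted over lists, to be read beside the tested genes called higher (3.04%, 2.75% and 3.41% at IF 8 h, DC 8 h and DC 22 h) and lower (4.72% at IF 8 h, 3.44% at IF 22 h, 4.35% at DC 22 h and 1.2% for IF against DC at 22 h). Of 14 interferon gamma signalling genes, 2 rose and 1 fell with IF for 8 h, 3 rose with DC for 8 h, 3 fell with IF for 22 h and 2 rose with DC for 22 h, and 5 were lower with IF than with DC at 22 h. With IF 22 h replicate 1 alone the 3 and the 5 were both 0, in fits that called 0.833% and 0.0673% of tested genes. Of 17 tested other interferon gamma induced genes, 3 rose with IF for 8 h and 4 with DC for 8 h. These included Cxcl10, a chemokine (2.79 ± 0.75 and 4.12 ± 0.76), Wars, a tryptophanyl-tRNA synthetase (1.77 ± 0.39 and 1.62 ± 0.39), and Parp14 (0.84 ± 0.25 and 1.32 ± 0.24). In that list 6 fell with IF for 22 h, with a list median of -0.57. With replicate 1 alone 0 were called and the median was again -0.57. In the same list, with DC for 22 h 2 rose and 1 fell. Of 14 partner genes of GBPs and IRGs in cell-autonomous defence, none was called at 8 h or in the IF 22 h group, and with DC for 22 h Trim21 rose (0.58 ± 0.17) and Map1lc3b fell (-0.78 ± 0.20). Trim21 was lower with IF than with DC at 22 h (-0.83 ± 0.17, adjusted p = 0.0124). For IF against DC at 22 h the median of the partner list was -0.04, and it was 0.15 with IF 22 h replicate 1 alone.

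Of 26 tested type I interferon antiviral genes, 7 fell and 1 rose at IF 8 h, while the GTPase median was 1.48 and theirs was -0.82. The lowest were Oasl1 (-2.61 ± 0.44), Usp18 (-2.16 ± 0.62) and Mx1 (-1.90 ± 0.31). At IF 22 h 19 of 26 fell, with a median of -2.67, among them Isg15 (-4.68 ± 0.56), and none was called at DC 8 h (median -0.01). Set directly against DC at 8 h, 4 of the 26 were lower with IF (median -1.13). In that comparison 0.665% of all tested genes were called in either direction. At DC 22 h 1 fell, Mx1 (2.01-fold lower, adjusted p = 0.0416), and the median was -0.27. At 22 h 17 were lower with IF than with DC, with a median of -2.06. With IF 22 h replicate 1 alone, 10 of 26 were called lower than unstimulated with a median of -2.65, and 1 lower than DC with a median of -2.14. For the 10 GTPases the IF 22 h medians stood at -0.16 against unstimulated cells and -1.42 against DC, beside 0.01 and -0.02 for all tested genes. No test compared the lists with each other.

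**Figure D4:**
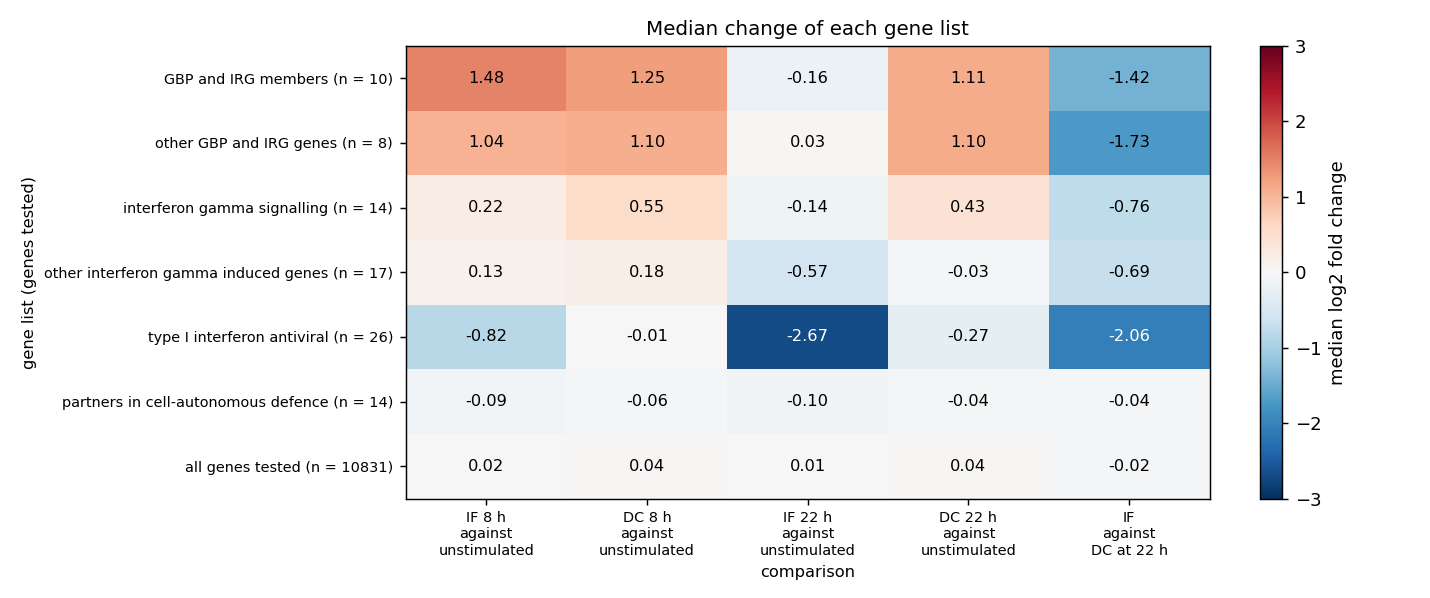
Median log2 fold change (colour and number in each cell) of the 10 members, of 5 lists of related genes and of all tested genes (rows, with the number of genes tested) in 5 comparisons (columns). At IF 22 h the members stand at -0.16 and the type I interferon antiviral genes at -2.67.

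RNA of dendritic cells could enter the DC libraries, since those cells shared the well and GBPs are also expressed in them, although viable CD8+ CD103- cells were sorted before RNA was taken. The summed level of 15 dendritic cell markers was 702 to 1566 CPM in unstimulated cells, 230.1 to 479.7 CPM with IF for 8 h, 871 to 1273 CPM with DC for 8 h, 391 to 636 CPM with IF for 22 h and 474 to 677 CPM with DC for 22 h. The median sum was lowest with IF for 8 h (244 CPM), and at 22 h it was 450.1 CPM with IF and 671 CPM with DC. Fscn1, a marker of mature dendritic cells, averaged 142 CPM (DC 8 h) and 85.1 CPM (DC 22 h), against 2.31 CPM unstimulated, 0.489 CPM with IF for 8 h and 23.7 CPM with IF for 22 h. Of the 15 markers 9 had a mean above the unstimulated one at DC 8 h and 6 at DC 22 h. Among those below it was Xcr1, a marker of cross-presenting dendritic cells, at 24.1 CPM unstimulated, 2.86 CPM at DC 8 h and 0.198 CPM at DC 22 h. Itgax was at 14.5, 5.32 and 3.95 CPM in the same order. Zbtb46 and Ccl17 were at 0 in all unstimulated libraries, and Zbtb46 also in all IF 8 h libraries. The part of dendritic cell RNA in the DC values was not tested, and in bulk RNA a change in the share of cells and a change of RNA per cell cannot be told apart.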

How the data were processed

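Counts per gene, whole numbers without normalization, were deposited by the authors for each of 15 libraries. Per the labels' protocols, libraries followed an adapted CEL-seq protocol (3′ ends, barcoded oligo-dT primers, in vitro transcription). Per the submitters' processing notes, BWA and the mouse build mm10 were used. Versions, strand and molecular identifiers are not given in the sources used here, so reads need not be independent molecules. Intervals of fold changes include the spread between libraries. Levels of different genes are not compared per length.

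In R 4.3.3 and edgeR 4.0.16, genes were kept by filterByExpr (minimum count 10, total 15), libraries were scaled by TMM, and all 15 libraries entered a single quasi-likelihood fit with a mean for each of the 5 groups. Tests in 9 comparisons were two-sided, with Benjamini-Hochberg adjustment over 10831 genes and a threshold of 0.05. Log2 fold changes use a prior count of 0.125, CPM the TMM-scaled totals, and profile likeness log2 CPM with a prior count of 2. DESeq2 1.42.0 was an alternative. The calling was tried on simulated counts drawn with the same spread for all genes and groups. That trial does not cover groups of unequal spread or changed genes with few counts.

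All 10 members are named. Of related lists, core pathway genes and some of the called genes are named. Not every called gene with a large change is among them. Members and lists were chosen with earlier results of these data known. The titles number libraries Don1 to Don3, which the labels do not explain. Deviations of same-numbered libraries correlated above 0.1 in every pair only between DC 8 h and DC 22 h (0.116, 0.399 and 0.238). There replicate 1 with 3 and replicate 3 with 1 also correlated (0.107 and 0.117). These values thus do not show that the numbers pair the libraries. In that comparison the replicate block called 0 members, as did the fit without it. Overlaps come from GENCODE vM21. Promoters of 6 members came from RefSeq. Protein sequences were not used here. The values of 1 gene of the related lists are not reported here.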

Additional observations from a re-analysis of the deposited data

How the results depend on the processing

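Counts of members called changed by more than 1.5 times under some alternatives; percentages here are the share of all tested genes called in either direction by the same fit. With library size alone in place of TMM, 8 members were called at IF 8 h (10.3%). Under that scaling the median of all genes was 0.22 to 0.37 in the 4 comparisons with unstimulated cells, beside 0.01 to 0.04 with TMM. Without the low-count filter 2 were called at IF 22 h, 8 at DC 22 h, 1 for IF against DC at 8 h, 7 at 22 h, 1 for DC 22 h against DC 8 h and 7 in the interaction (6.43%, 7.46%, 1.26%, 4.12%, 1.47% and 0.905% in that order). DESeq2 called 1 for IF against DC at 8 h (1.80%) and 2 in the interaction (0.369%). With only the compared groups in the fit, 2 were called at DC 22 h (5.13%) and 0 for IF against DC at 22 h (0.687%). With IF 22 h replicate 1 alone, 2 were called at DC 8 h (5.57%), 0 for IF against DC at 22 h (0.0673%) and 0 for IF 22 h against IF 8 h (0%). Without both DC libraries numbered 2, counts were 2 at DC 8 h (6.35%), 1 at DC 22 h (6.29%) and 0 for IF against DC at 22 h (3.11%). Leaving out 1 library gave 4 to 6 at IF 8 h (3.75% to 10.1%), 2 to 5 at DC 8 h (3.61% to 9.45%), 0 to 2 at IF 22 h (2.53% to 8.49%), 0 to 5 at DC 22 h (4.06% to 8.81%), 0 for IF against DC at 8 h (0.242% to 1.01%), 0 to 5 at 22 h (0.805% to 6.81%), 0 to 7 for IF 22 h against IF 8 h (0.215% to 4.85%), 0 for DC 22 h against DC 8 h (0.00898% to 1.24%) and 0 to 3 in the interaction (0% to 2.50%). The causes were not tested.

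Directions turned in values near 0. Gbp4 at IF 22 h was 0.18 with library size alone, and Igtp at IF 22 h was -0.25 with replicate 1 alone. Over leave-one-out fits the ranges that crossed 0 were, at IF 22 h, -0.058 to 0.64 (Gbp3), -0.064 to 0.032 (Gbp4) and -0.057 to 0.43 (Igtp). For IF against DC at 8 h they were -0.24 to 0.90 (Gbp2), -0.074 to 0.31 (Gbp3), -0.034 to 0.79 (Igtp) and -0.15 to 0.40 (Irgm1). For DC 22 h against DC 8 h they were -0.75 to 0.14 (Gbp4), -0.65 to 0.20 (Gbp5), -0.66 to 0.49 (Gbp6), -0.13 to 0.18 (Gbp9), -0.51 to 0.74 (Igtp) and -0.075 to 0.70 (Irgm1).

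The replicate number as a block gave 5 members at IF 8 h, 5 at DC 8 h with Igtp added (adjusted p = 0.0389), 4 at DC 22 h with Gbp5 added (adjusted p = 0.0490) and Gbp3 lost (adjusted p = 0.0674), 3 for IF against DC at 22 h and 5 for IF 22 h against IF 8 h (7.08%, 6.59%, 7.25%, 2.26% and 0.969% in that order). Deviations of 30 same-numbered pairs correlated at -0.19 to 0.40, with 4 above 0.1, and 3 of these 4 were the pairs of DC 8 h and DC 22 h, where the block called 0 members. Irgm1 and Gbp5 had few counts, down to 13 and 4 per library, which limits their precision.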
